A study of Mus musculus with 16 samples.

Results

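The inositol trisphosphate (IP3) receptor genes Itpr1, Itpr2 and Itpr3 and the ryanodine receptor genes Ryr1, Ryr2 and Ryr3 were followed in RNA of the mouse striatum. They are all the genes named Itpr or Ryr with a number, were chosen by name, and make up 6 of the 20730 genes in the files. Each of the 6 genes was found in all 16 libraries and passed the filter on low values in all 5 comparisons. The libraries came from 8 adult C57BL/6N mice, which all carried a RiboTag adeno-associated virus (AAV) that makes astrocytes produce the ribosomal protein Rpl22 with a hemagglutinin tag. In 4 of them a second AAV encoded hPMCA2w/b, a calcium pump of the plasma membrane that lowers calcium signals (PMCA mice). In the other 4 it encoded a control protein (control mice). Each mouse gave RNA precipitated with the tagged astrocyte ribosomes (IP) and RNA of the cleared lysate of the whole striatum (input), which makes 4 groups of 4 libraries. The promoters that drove the viral genes, the identity of the control protein and the sex of the mice are not given in the labels.

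Both families form large channels in the membrane of the endoplasmic reticulum, the main calcium store of the cell, and let calcium out into the cytosol. IP3 receptors open when IP3 binds them, which phospholipase C makes after a receptor coupled to a Gq protein is activated. Ryanodine receptors open mainly when cytosolic calcium rises, or, in skeletal muscle, when a voltage sensor in the plasma membrane moves. IP3 receptor type 2, made from Itpr2, is known as the chief release channel of mouse astrocytes. Type 1, made from Itpr1, is the main neuronal form and is abundant in projection neurons of the striatum.

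Itpr2 was the only one of the 6 genes higher in IP than in input, and the sequences at the starts of Itpr2 and of Itpr3, the IP3 receptor gene with the largest fall in IP, are set side by side for that reason. They are from RefSeq, build GRCm38.p6, and cover the 250 bases before the transcript start that the promoter table uses, written 5′ to 3′ on the gene's own strand. For both genes the RefSeq gene record begins upstream of that transcript start, so the Itpr3 window lies inside the gene record and the Itpr2 window overlaps it at one end. Capitals mark GC boxes (GGGCGG or its reverse complement CCGCCC) and CCAAT boxes (CCAAT or its reverse complement ATTGG). The Itpr2 window is chr6:146502224-146502473 (minus strand) and the Itpr3 window is chr17:27057054-27057303 (plus strand).
Itpr2: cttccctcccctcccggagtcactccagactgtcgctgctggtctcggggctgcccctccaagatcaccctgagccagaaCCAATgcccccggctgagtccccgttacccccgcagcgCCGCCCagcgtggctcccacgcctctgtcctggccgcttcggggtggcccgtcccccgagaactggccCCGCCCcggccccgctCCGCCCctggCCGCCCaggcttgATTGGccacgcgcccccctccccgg
Itpr3: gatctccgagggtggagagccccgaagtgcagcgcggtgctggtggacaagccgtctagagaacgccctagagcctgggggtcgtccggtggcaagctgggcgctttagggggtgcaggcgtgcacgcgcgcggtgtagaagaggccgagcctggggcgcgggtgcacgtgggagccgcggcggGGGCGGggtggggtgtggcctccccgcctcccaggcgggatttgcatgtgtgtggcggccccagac

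The Itpr2 window held 4 GC boxes and 2 CCAAT boxes. The Itpr3 window held 1 GC box and no CCAAT box. Of 32851 such windows in the RefSeq table, 32.7% held a GC box and 33.8% a CCAAT box. The windows of Ryr1 and Ryr2, the other members matched to the table, held 2 GC boxes and 1 CCAAT box for Ryr1 and none of either for Ryr2. A TATA box (TATAAA or TTTATA) was in none of the 4 windows and in 12.4% of all windows. G and C made up 74.4% of the Itpr2 window, 72% of that of Itpr3, 54.8% of that of Ryr1 and 63.2% of that of Ryr2, against a median of 52.4% over all windows. Itpr1 and Ryr3 had no entry in that table. Whether the boxes bear on the levels in IP and input was not tested, and windows chosen by those levels cannot show it.

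Itpr1 (gene ID 16438) spans chromosome 6, 108213083 to 108551116, and Itpr2 (16439) spans chromosome 6, 146108299 to 146502258. Itpr3 (16440) spans chromosome 17, 27057002 to 27122223. Ryr1 (20190) spans chromosome 7, 29003340 to 29125179, Ryr2 (20191) chromosome 13, 11553099 to 12106945, and Ryr3 (20192) chromosome 2, 112631354 to 113217405. Positions are those of GRCm38.p6, whose coordinates are those of mm10. Levels are given as log2 CPM, the base-2 logarithm of read counts scaled to library size. They are not divided by transcript length, so a level is compared between groups within a gene. Differences between members within a library, given further below, contain the lengths and are compared only between groups.

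IP libraries held 48070477 to 55148810 reads in PMCA mice and 46829673 to 58482482 in control mice. Inputs held 32334042 to 40851354 reads in PMCA mice and 33052804 to 40182495 in control mice. All 18 astrocyte markers rose in IP over input in both treatments (median log2 fold 3.09 in PMCA mice and 3.07 in control mice), which checks the label of the precipitate. All 12 microglial and all 14 striatal projection neuron markers fell (medians -4.48 and -1.61 in PMCA mice, -5.54 and -1.56 in control mice), and so did all 10 endothelial markers. Of the 14 general neuron markers, 10 were lower and 1 higher in PMCA mice (median -0.87), and 9 and 2 in control mice (-0.33). Of the 7 mural cell markers, 4 were lower and 2 higher in both treatments. Markers of some other cells were higher in IP than in input. They were 8 of 11 interneuron markers in PMCA mice (median 1.63) and 10 of 11 in control mice (1.94), and 5 of 6 ependymal markers in both (2.26 in PMCA mice and 2.19 in control mice). Of the oligodendrocyte markers, 7 of 10 were higher in PMCA mice and 4 of 10 in control mice, where 1 was lower. Of their precursors' markers, 4 of 7 were higher in PMCA mice and 6 of 7 in control mice. Of all genes, 37.5% were higher and 39.3% lower in PMCA mice, and 39.1% higher and 38.4% lower in control mice. The 4 of 10 oligodendrocyte markers in control mice are thus near the share of all genes. None of the marker genes had 0 reads in any library. Rpl22 itself was lower in PMCA mice, at 8.11 ± 0.11 log2 CPM in PMCA IP and 9.80 ± 0.15 in control IP (SD, n = 4 each, limma adjusted p = 1.94e-05). It was also lower in input, at 6.72 ± 0.086 in PMCA mice and 7.60 ± 0.14 in control mice (limma adjusted p = 0.000488). These reads do not separate tagged from endogenous Rpl22, and no protein was measured. The treatment and this lower level of Rpl22 RNA cannot be told apart in any comparison of the treatments. Atp2b2, the mouse gene of the pump PMCA2, lay at 9.87 ± 0.20 in PMCA IP and 9.52 ± 0.27 in control IP (adjusted p = 0.113).

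**Figure D1:**
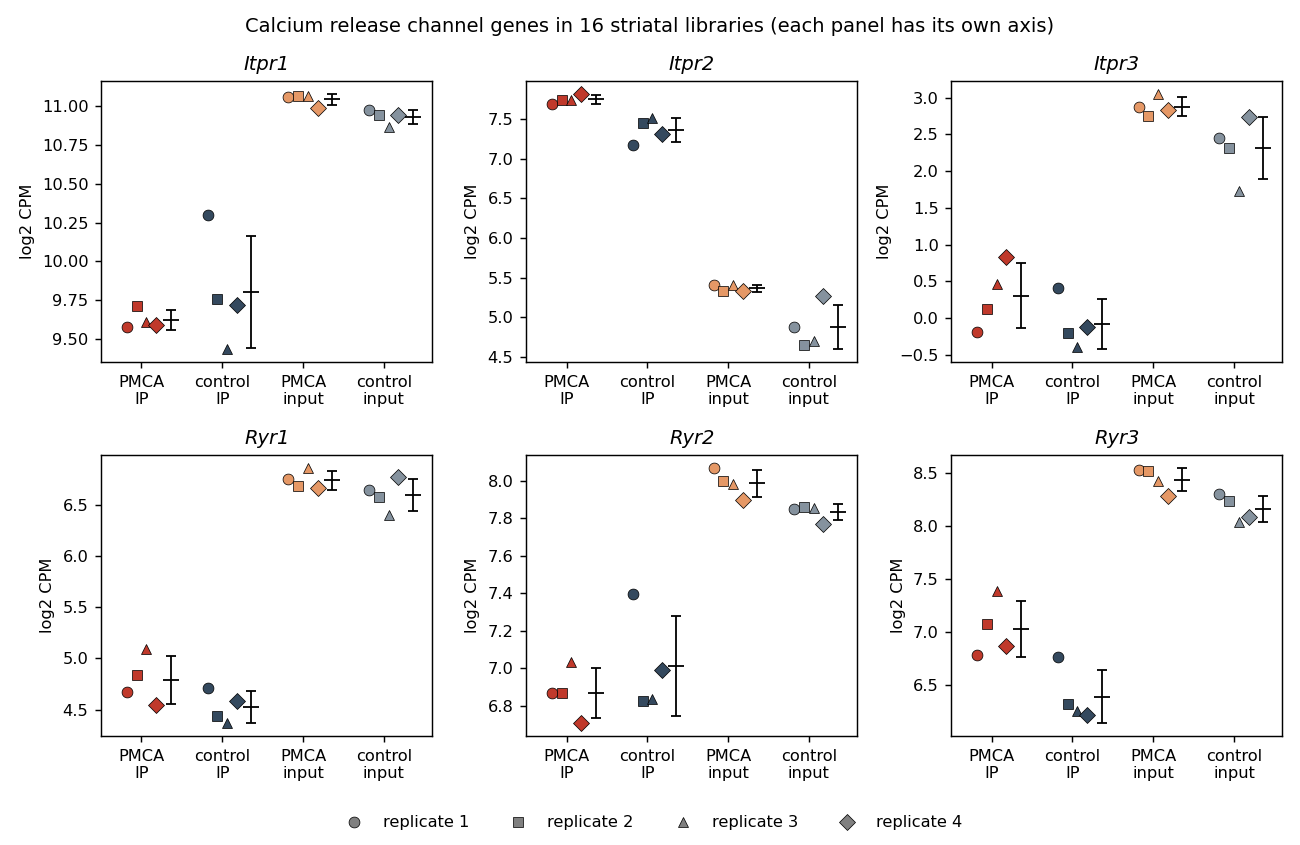
Level of each release channel gene in each library, as log2 CPM on the vertical axis of its own panel. Columns are PMCA IP, control IP, PMCA input and control input, symbols are the 4 mice of a treatment, and the bar beside each column is the mean with 1 SD. Itpr2 sits above its inputs in both IP groups, and the other 5 genes sit below theirs.

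The comparison of IP with input asked which release channels were carried by RNA on astrocyte ribosomes. In this comparison all 6 genes passed the threshold in both treatments, 1 higher and 5 lower, where 76.9% of all genes passed in PMCA mice (37.5% higher and 39.3% lower) and 77.5% in control mice (39.1% higher and 38.4% lower). Every IP library lay above every input library for Itpr2 and below it for the other 5 genes. Of all genes, 35.7% lay wholly above and 35.8% wholly below in PMCA mice (71.5% in all), and 37% above and 35.3% below in control mice (72.4% in all). A pass was thus the usual outcome for a gene in this comparison. With total reads in place of the authors' scaling, 4290 genes were higher and 8876 lower in PMCA mice, against 6117 and 6413 with it, and all 6 release channel genes kept their direction. In bulk RNA a smaller share of cells of a type and less RNA per cell cannot be told apart.

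Itpr2 lay at 7.69, 7.73, 7.75 and 7.82 log2 CPM in the IP of PMCA mice and at 5.40, 5.33, 5.41 and 5.33 in their inputs. In control mice it lay at 7.17, 7.45, 7.51 and 7.31 in IP and at 4.88, 4.65, 4.70 and 5.27 in input. Every IP library was above every input library, and the order of the groups was PMCA IP, control IP, PMCA input and control input, with no overlap between neighbours. IP exceeded input by 2.38 on the log2 scale in PMCA mice (SE 0.047, limma adjusted p = 7.03e-11), a 5.20-fold difference, and by 2.49 in control mice (SE 0.13, adjusted p = 2.35e-08), a 5.60-fold difference. On the CPM scale the means were 215 ± 7.82 in PMCA IP and 41.3 ± 1.25 in PMCA input, and 165 ± 17.3 in control IP and 29.8 ± 6.09 in control input (SD, n = 4 each).

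Itpr1, the neuronal IP3 receptor gene, went the other way. It lay at 9.58, 9.71, 9.61 and 9.59 log2 CPM in PMCA IP, against 11.06, 11.07, 11.06 and 10.99 in PMCA input. In control mice the values were 10.30, 9.76, 9.43 and 9.72 in IP, against 10.98, 10.94, 10.86 and 10.94 in input. The control IP library of mouse 1 stood above the other 7 IP libraries, and all IP libraries lay below all inputs. The log2 fold of IP over input was -1.42 in PMCA mice (SE 0.059, adjusted p = 6.54e-09) and -1.13 in control mice (SE 0.15, adjusted p = 4.57e-05). In IP, Itpr1 still had 35175 to 38286 reads per library in PMCA mice and 36079 to 63944 in control mice.

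Itpr3, an IP3 receptor gene best known from epithelia and taste cells, was the member with fewest reads. IP libraries held 40 to 87 reads of it in PMCA mice and 39 to 67 in control mice, against 261 to 375 in PMCA inputs and 146 to 296 in control inputs. Its log2 CPM values were -0.20, 0.13, 0.46 and 0.83 in PMCA IP, against 2.87, 2.75, 3.05 and 2.84 in PMCA input. In control mice they were 0.41, -0.21, -0.40 and -0.12 in IP, against 2.45, 2.32, 1.73 and 2.74 in input. The groups did not overlap. The log2 fold of IP over input was -2.57 in PMCA mice (SE 0.20, adjusted p = 8.8e-07) and -2.39 in control mice (SE 0.24, adjusted p = 4.38e-06).

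Ryr1, the skeletal muscle ryanodine receptor gene, was lower in IP in every mouse. PMCA mice had 4.68, 4.84, 5.09 and 4.55 log2 CPM in IP, against 6.75, 6.68, 6.86 and 6.66 in input. Control mice had 4.71, 4.43, 4.37 and 4.58 in IP, against 6.65, 6.58, 6.40 and 6.78 in input. The log2 folds were -1.95 in PMCA mice (SE 0.10) and -2.08 in control mice (SE 0.094), with limma adjusted p-values of 4.32e-08 and 9.58e-09. This gene had the largest fall of the ryanodine receptor genes in both treatments.

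Ryr2, the main ryanodine receptor gene of heart muscle and also found in neurons, had the smallest fall. It lay at 6.87, 6.87, 7.03 and 6.71 log2 CPM in PMCA IP, against 8.07, 8.00, 7.98 and 7.89 in PMCA input. Control mice had 7.40, 6.83, 6.84 and 6.99 in IP, against 7.85, 7.86, 7.86 and 7.77 in input. The log2 fold was -1.12 in PMCA mice (SE 0.070, adjusted p = 1.43e-07) and -0.82 in control mice (SE 0.11, adjusted p = 4.53e-05). As with Itpr1, the highest of the IP values was that of control mouse 1.

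Ryr3, a ryanodine receptor gene expressed in brain, lay at 6.78, 7.07, 7.38 and 6.86 log2 CPM in PMCA IP, against 8.52, 8.51, 8.42 and 8.28 in PMCA input. Control mice had 6.76, 6.31, 6.25 and 6.22 in IP, against 8.29, 8.23, 8.03 and 8.08 in input. All IP libraries again lay below all inputs. The log2 fold was -1.41 in PMCA mice (SE 0.12, adjusted p = 1.44e-06) and -1.77 in control mice (SE 0.11, adjusted p = 1.3e-07).

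The SEs above are from fits that did not pair the libraries of a mouse. Because input and IP came from the same mouse, the difference could also be read mouse by mouse. For Itpr2 it was 2.29, 2.40, 2.34 and 2.49 in the PMCA mice and 2.29, 2.80, 2.81 and 2.04 in the control mice. Its spread was therefore wider in control mice (SD 0.38) than in PMCA mice (SD 0.087), and the test of a difference in spread was not run. For the other 5 genes every one of the 8 mice had a negative difference, from -3.06 (Itpr3 in PMCA mouse 1) to -0.45 (Ryr2 in control mouse 1).

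**Figure D2:**
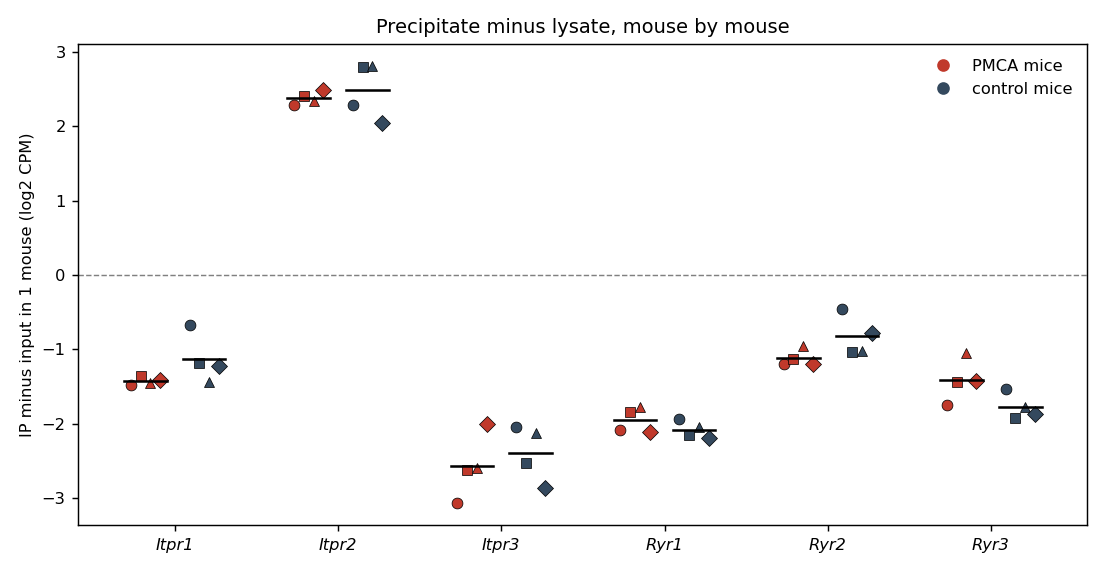
IP minus input in log2 CPM for each mouse, PMCA mice at the left and control mice at the right of each gene, with a line at each mean. Itpr2 is above 0 in all 8 mice and the other genes are below 0 in all 8.

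A further question was whether the release channels differed on astrocyte ribosomes when the pump was expressed. Itpr2 and Ryr3 were higher in PMCA IP, and Itpr1, Itpr3, Ryr1 and Ryr2 did not pass the threshold. That is 2 of 6 members called, both higher, where 19.7% of 15640 genes were called (9.58% higher and 10.2% lower). The median log2 fold of the 6 genes was 0.32, against -0.012 over all genes tested. Comparisons of PMCA with control and of IP with input share the IP libraries, so the values of a gene in them are not independent.

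For Itpr2, the 4 PMCA IP values of 7.69 to 7.82 lay above the 4 control IP values of 7.17 to 7.51. The gap between the groups was wider than the range of the PMCA libraries (SD 0.052). It was narrower than the range of the control libraries (SD 0.15). The log2 fold was 0.39 (SE 0.079, limma adjusted p = 0.0104), a 1.31-fold difference. For Ryr3, the PMCA IP values of 6.78 to 7.38 lay just above the control IP values of 6.22 to 6.76, the highest of which came from control mouse 1. The log2 fold was 0.64 (SE 0.15, adjusted p = 0.0172), a 1.56-fold difference. Of all genes tested, 25.6% had groups that did not overlap (11.3% with every PMCA IP library above and 14.3% with every one below), and Itpr2 and Ryr3 were the members that did, both above. Neither gene was called with the set of high or low animal numbers, control mouse 4 placed by its source name, as a block. That set holds no control mouse among the high numbers, so the fold is then of PMCA mice 1 and 2 alone against the 4 control mice (Itpr2 0.35, adjusted p = 0.0526, and Ryr3 0.54, adjusted p = 0.0896).

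The other members had intervals that included 0. Ryr1 had a log2 fold of 0.26 (95% interval -0.0057 to 0.53, adjusted p = 0.15) and Itpr3 of 0.38 (-0.20 to 0.97, adjusted p = 0.328). Itpr1 had -0.18 (-0.53 to 0.16, adjusted p = 0.436) and Ryr2 -0.14 (-0.42 to 0.13, adjusted p = 0.446). The groups overlapped for all 4 genes. Without control mouse 1, the fold of Itpr1 was -0.016 and that of Ryr2 -0.016. Without that mouse Itpr2 (0.32) and Ryr3 (0.76) were still called.

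**Figure D3:**
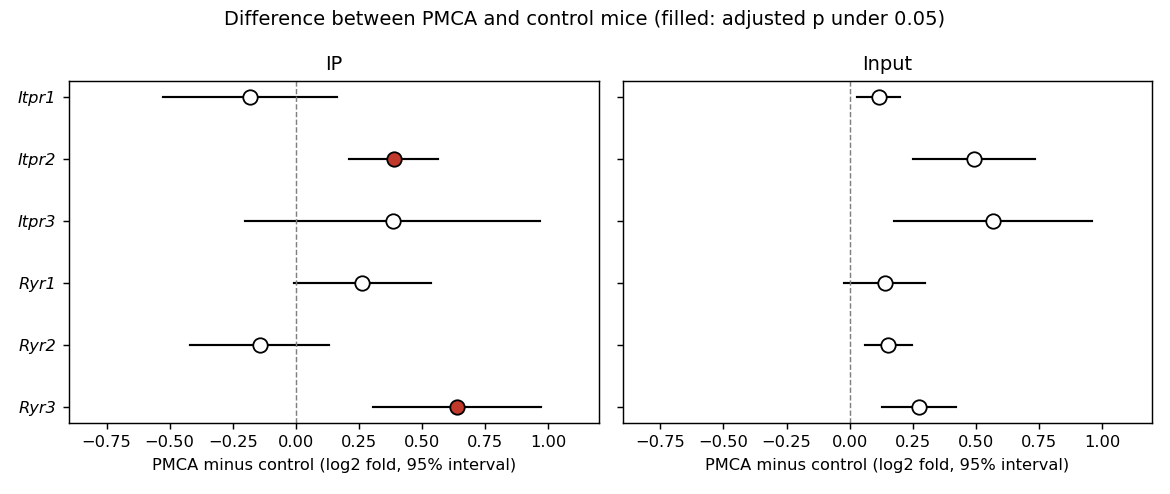
Log2 fold of PMCA over control mice for each release channel gene in IP (left) and input (right), with 95% intervals from limma. Filled points passed an adjusted p of 0.05, which were Itpr2 and Ryr3 in IP and none in input.

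Differences between members within a library were also described. Ryr3 minus Ryr2, a difference of log2 CPM in 1 library that also contains the lengths of the genes, was -0.086 to 0.35 in PMCA IP and -0.77 to -0.51 in control IP. It was 0.39 to 0.52 in PMCA input and 0.17 to 0.45 in control input, where the groups overlapped. Ryr3 minus Ryr1 was 2.11 to 2.32 in PMCA IP and 1.63 to 2.04 in control IP. It was 1.56 to 1.83 in PMCA input and 1.31 to 1.65 in control input, which overlapped. Itpr2 minus Itpr1 was -1.98 to -1.77 in PMCA IP and -3.13 to -1.92 in control IP, which overlapped. Itpr2 minus Itpr3 was 6.99 to 7.89 in PMCA IP and 6.76 to 7.91 in control IP, which also overlapped. The pairs that did not overlap in IP contain Ryr3, which was called there, and no share over all pairs of genes was computed. These differences do not depend on the scaling of a library and were not tested.

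Nuclear noncoding RNAs and markers of several cell types, astrocytes among them, also differed between the IP groups. Of all genes, 9.58% were higher and 10.2% lower in PMCA IP. None of the oligodendrocyte, oligodendrocyte precursor and ependymal markers passed. All 6 nuclear noncoding RNAs rose in PMCA IP (median log2 fold 1.06), and their summed level was 3228 to 5685 CPM in PMCA IP and 1511 to 2257 CPM in control IP. General neuronal markers fell in 10 of 14 cases (median -0.46), with sums of 3433 to 4096 CPM in PMCA IP and 4279 to 5506 CPM in control IP, the highest being control mouse 1. Interneuron markers fell in 7 of 11 cases, with sums of 1069 to 1194 CPM in PMCA IP and 1314 to 1365 CPM in control IP. Microglial markers rose in 5 of 12 cases, with sums of 86.0 to 138 CPM in PMCA IP and 67.3 to 86.7 CPM in control IP. Endothelial markers rose in 4 of 9 cases (median 0.65), with sums of 13.1 to 21.4 CPM in PMCA IP and 9.84 to 12.1 CPM in control IP. Of the 7 mural cell markers 2 rose and 1 fell, with sums of 96.7 to 106.9 CPM in PMCA IP and 79.2 to 87.9 CPM in control IP. Projection neuron markers fell in 1 of 14 cases, not above the share of all genes. Their sums overlapped, at 3393 to 5191 CPM in PMCA IP and 3137 to 5590 CPM in control IP. Astrocyte markers rose in 4 of 18 cases, with sums of 59416 to 71765 CPM in PMCA IP and 46798 to 61831 CPM in control IP. PMCA mouse 3 had the highest sum of nuclear noncoding RNA and the highest Ryr3, Ryr1 and, among PMCA IP libraries, Ryr2. The order of the other libraries was mixed. In control IP, mouse 3 had the highest sum (2257 CPM), the highest Itpr2 (7.51) and the lowest Ryr1 (4.37). Ryr3 and Ryr1 were there highest in mouse 1, with a sum of 1788 CPM. Ryr3 was there lowest in mouse 4 (6.22), which had the lowest sum (1511 CPM). Itpr2 was highest in PMCA mouse 4 (7.82), which had the lowest sum among PMCA IP libraries (3228 CPM). That mouse also had the lowest Ryr1 (4.55) and Ryr2 (6.71) of the PMCA IP libraries. The part of these RNAs in the values of Itpr2 and Ryr3 was not tested.

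**Figure D4:**
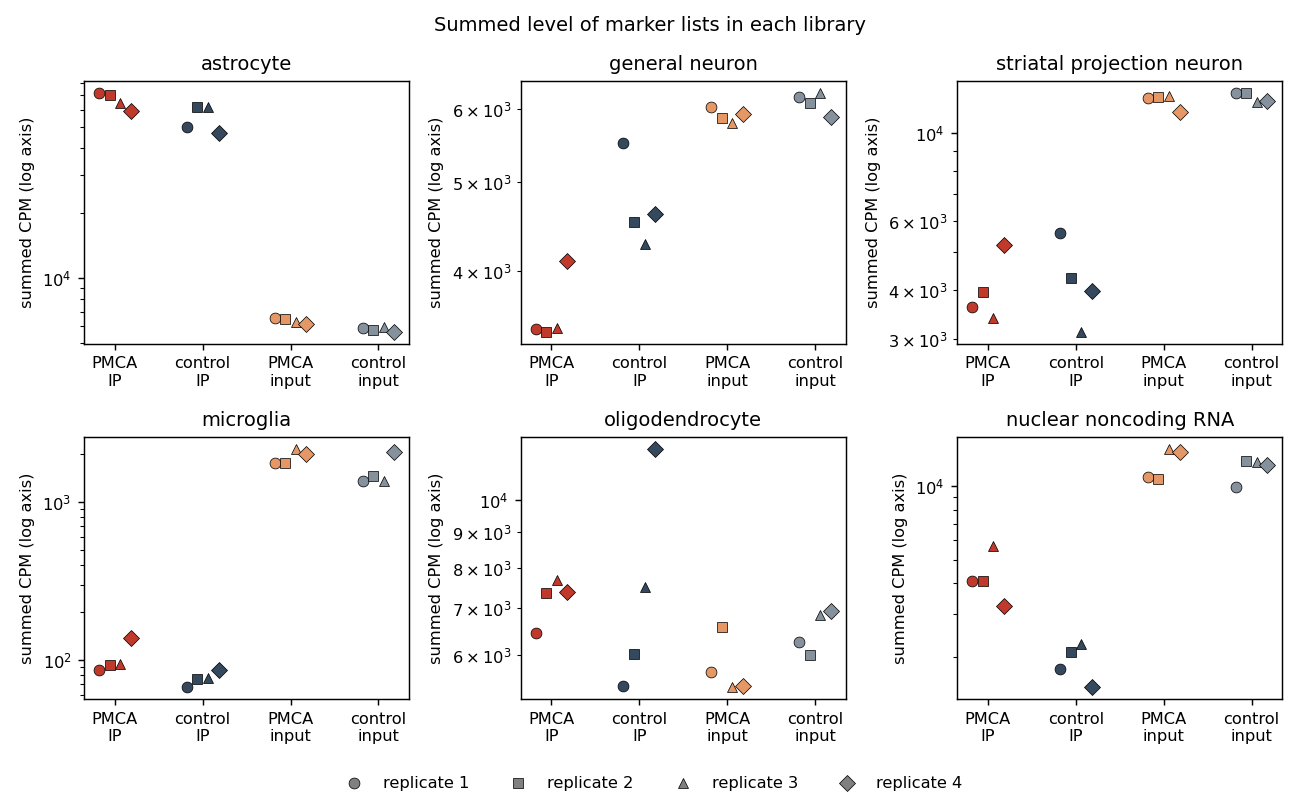
Summed CPM of marker lists in each library on log axes, for astrocytes, neurons, striatal projection neurons, microglia, oligodendrocytes and nuclear noncoding RNA. Nuclear noncoding RNA is at 3228 to 5685 in PMCA IP and at 1511 to 2257 in control IP, and microglial markers in control input reach 2075 in mouse 4 but 1363 to 1458 in mice 1 to 3.

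In input, where the whole tissue was measured, none of the 6 genes passed between PMCA and control mice. Here 0.44% of 16347 genes were called in limma, 72 in all, and 3154 had an unadjusted p under 0.05. Of the members, 5 had an unadjusted p under that value: Itpr2 (0.000895), Ryr3 (0.00171), Ryr2 (0.00386), Itpr3 (0.00867) and Itpr1 (0.0129). The log2 folds of all 6 were positive, with a median of 0.21 against -0.0060 over all genes. They were 0.57 for Itpr3 (SE 0.18, adjusted p = 0.14), 0.49 for Itpr2 (SE 0.11, adjusted p = 0.077) and 0.27 for Ryr3 (SE 0.067, adjusted p = 0.0889). For Ryr2 the fold was 0.15 (SE 0.042, adjusted p = 0.114), for Ryr1 0.14 (SE 0.073, adjusted p = 0.321) and for Itpr1 0.11 (SE 0.039, adjusted p = 0.161).

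In 4 of the 6 genes, Itpr1, Itpr2, Itpr3 and Ryr2, every PMCA input lay above every control input. Of all genes, 9.74% had groups that did not overlap, 4.98% with PMCA above and 4.76% with PMCA below. The margin was small in each case. For Itpr2 the lowest PMCA input was 5.33 and the highest control input 5.27, and for Itpr3 they were 2.75 and 2.74. Both of those control values came from mouse 4, while mice 1 to 3 lay at 4.65 to 4.88 for Itpr2 and 1.73 to 2.45 for Itpr3.

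The calls in input changed without control mouse 4 and also with a block for the animal numbers. Without it, Itpr2 (0.62, adjusted p = 0.000383), Itpr3 (0.71, adjusted p = 0.0217) and Ryr3 (0.25, adjusted p = 0.0474) were called, and the number of genes called was 1349. The labels of this mouse give different animal numbers in the title and in the source name. With the set of animal numbers in the titles as a block, Itpr2 (0.44), Ryr2 (0.18) and Ryr3 (0.31) were called. In the same inputs microglial markers summed to 1764 to 2181 CPM in PMCA mice, to 2075 CPM in control mouse 4, and to 1363 to 1458 CPM in control mice 1 to 3. None of the 12 microglial markers passed between PMCA and control input (median log2 fold 0.29). Astrocyte markers summed to 6141 to 6561 CPM in PMCA input and 5672 to 5938 CPM in control input, with no overlap. Of the 18, the glutamate transporter genes Slc1a2 (log2 fold 0.31, adjusted p = 0.0484) and Slc1a3 (0.26, adjusted p = 0.0343) rose and none fell (median 0.12). The part of microglial and astrocyte RNA in the members' input values was not tested.

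The last comparison asked whether the PMCA effect differed between IP and input. None of the 6 genes passed, where 2.03% of 16673 genes were called (339 genes in limma, and 2711 at an unadjusted p under 0.05). The difference of the effects was 0.36 for Ryr3 (95% interval -0.013 to 0.74, adjusted p = 0.329) and -0.30 for Ryr2 (-0.59 to -0.00052, adjusted p = 0.307). It was -0.11 for Itpr2 (-0.42 to 0.20, adjusted p = 0.784) and -0.30 for Itpr1 (-0.66 to 0.070, adjusted p = 0.428). Ryr1 had 0.12 (-0.19 to 0.44) and Itpr3 -0.18 (-0.88 to 0.51). These intervals are from a fit that did not pair the libraries of a mouse. With the animal as a block, none of the 6 genes passed either. Itpr2, called in IP and not in input, is thus not shown to differ between the fractions, and neither is Ryr3.

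The genes that make IP3, break it down or act on the channels were followed in 8 lists with 87 genes. In the comparison of IP with input, 42 of 83 tested genes were higher and 31 lower in PMCA mice, and 43 of 82 were higher and 27 lower in control mice. Of all genes, 37.5% were higher and 39.3% lower in PMCA mice, and 39.1% were higher and 38.4% lower in control mice, which is the background for the list counts that follow. The median log2 fold was 0.29 in PMCA mice, against -0.040 over all genes, and 0.36 in control mice, against -0.0025 over all genes. The release channels, with 1 gene higher and 5 lower, had medians of -1.42 in PMCA mice and -1.45 in control mice.

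Upstream of the channels, 8 of the 12 phospholipase C genes were higher in IP and 4 lower in both treatments. Plcd4 had a log2 fold of 3.07 in PMCA mice and 2.95 in control mice, and Plcb3 (2.71 in PMCA mice and 2.63 in control mice) and Plcd1 (2.63 in PMCA mice and 2.62 in control mice) followed. Plce1 was higher (2.28 in PMCA mice and 2.26 in control mice) and Plcb2 lower (-1.99 in PMCA mice and -2.33 in control mice). Of the 16 Gq-coupled receptors 8 were higher and 7 lower in PMCA mice, and 9 and 7 in control mice. They were led by the endothelin receptor genes Ednra (3.20 in PMCA mice and 3.09 in control mice) and Ednrb (2.65 in PMCA mice and 2.85 in control mice) and by P2ry2, a nucleotide receptor gene (2.61 in PMCA mice and 2.62 in control mice). Hrh1, a histamine receptor gene, was higher (1.80 in PMCA mice and 2.004 in control mice), and Htr2a, a serotonin receptor gene, was lower (-2.06 in PMCA mice and -1.56 in control mice). Gnaq, the G protein subunit that links such receptors to phospholipase C, was higher (0.81 in PMCA mice and 0.70 in control mice), and Gna15, its counterpart in blood cells, was lower (-3.32 in PMCA mice and -4.12 in control mice).

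Among the kinases and phosphatases of IP3 and of the inositol phosphates made from it, 5 of 9 genes were higher in IP and 2 lower in both treatments. Itpkb, an IP3 kinase gene, had a log2 fold of 2.40 in PMCA mice and 2.39 in control mice, whereas Itpka, the neuronal IP3 kinase gene, was lower (-1.81 in PMCA mice and -1.76 in control mice). Inpp1, a phosphatase gene for products further down that path, was higher (0.53 in PMCA mice and 0.40 in control mice), as was Itpkc (0.40 in PMCA mice and 0.38 in control mice), and Inpp5a, a gene of an IP3 phosphatase, was lower (-0.22 in PMCA mice and -0.41 in control mice).

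Of the genes for IP3 receptor regulators, 7 were higher and 6 lower among 16 in PMCA mice, and 7 and 5 among 15 in control mice. Ahcyl1, whose protein IRBIT binds the IP3 site of the receptor, had a log2 fold of 1.60 in PMCA mice and 1.51 in control mice. Bcl2, a survival factor that also binds IP3 receptors, was higher (1.60 in PMCA mice and 1.43 in control mice). So were Ahcyl2 (1.39 in PMCA mice and 1.38 in control mice) and Erlin2, whose protein takes part in receptor degradation (1.27 in PMCA mice and 1.33 in control mice). Mrvi1, which codes for a receptor-binding protein, was lower (-1.42 in PMCA mice and -1.11 in control mice). Tespa1, which codes for another, had -1.97 in PMCA mice and did not pass the filter on low values in control mice.

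Partners of the ryanodine receptors went both ways, with 5 higher and 7 lower of 14 in PMCA mice and 5 higher and 6 lower of 14 in control mice. Jph2, a junctophilin gene best known from the heart, had a log2 fold of 2.55 in PMCA mice and 2.53 in control mice, and Homer3, a scaffold gene, was higher (2.06 in PMCA mice and 2.12 in control mice). Jph3, a junctophilin gene of neurons, was lower (-1.46 in PMCA mice and -1.55 in control mice), and so was Homer1 (-1.69 in PMCA mice and -1.68 in control mice).

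Genes for proteins that refill or buffer the store were measured too. Of 6 pump genes and regulators 2 were higher and 4 lower in PMCA mice, and 2 and 2 in control mice. Atp2a3, a store pump gene, had a log2 fold of -2.08 in PMCA mice and -1.54 in control mice, and Pln, a pump inhibitor gene, was lower (-1.28 in PMCA mice and -2.03 in control mice). Tmem38b, a potassium channel gene of the store membrane, was higher (1.36 in PMCA mice and 1.16 in control mice), as was Tmco1, a calcium leak channel gene (0.74 in PMCA mice and 0.79 in control mice). All 6 genes of calcium-binding chaperones were higher in IP in both treatments, among them Canx (1.11 in PMCA mice and 1.19 in control mice), Pdia4 (1.15 in PMCA mice and 1.17 in control mice), Pdia3 (1.12 in PMCA mice and 1.03 in control mice) and Hsp90b1 (0.59 in PMCA mice and 0.76 in control mice).

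**Figure D5:**
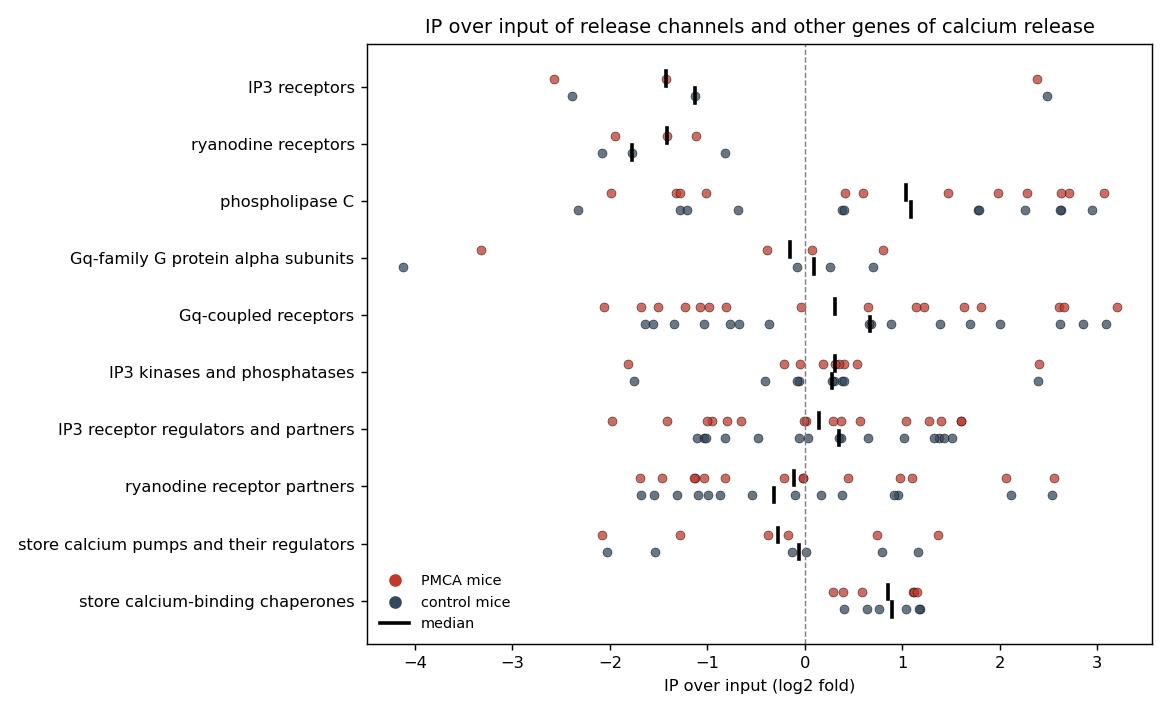
Log2 fold of IP over input of each gene tested, by list, with PMCA mice in red above control mice in dark blue and a bar at each median. Itpr2 is the lone IP3 receptor gene right of 0, and the 6 calcium-binding chaperone genes are all right of 0.

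Between PMCA and control IP, 5 of 82 tested pathway genes were higher and 7 lower, a smaller share than the 9.58% higher and 10.2% lower of all genes, and the median log2 fold was -0.00083. Higher were Gna15 (1.21, SE 0.32, adjusted p = 0.0279), Pln (1.0001, SE 0.26, adjusted p = 0.0256), Ednra (0.58, SE 0.11, adjusted p = 0.00773), Itpripl2 (0.31, SE 0.083) and Bcl2 (0.25, SE 0.070). Lower were P2ry1, a nucleotide receptor gene (-0.57, SE 0.15, adjusted p = 0.0242), Agtr1a, an angiotensin receptor gene (-0.54, SE 0.15), Htr2a (-0.52, SE 0.15), Tmem38a, a potassium channel gene of the store membrane (-0.36, SE 0.058), Plcb4 (-0.35, SE 0.060) and the chaperone gene Hspa5 (-0.31, SE 0.077). The remaining one of the 7 was Hrh1 (-0.27, SE 0.078), outside the rule of 4 genes a list and named after its value was seen. In input and in the difference between fractions, 0 of 84 pathway genes passed in limma.

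Genes whose level followed each member most closely over the 16 libraries were found by Pearson correlation of log2 CPM over 16673 genes. The libraries share their fraction and mouse, and most genes differ between IP and input, so these values are a description only. For Itpr2 the closest were Notch1 (r = 0.998), Hgf (0.997) and Erbb2 (0.996). For Itpr1 they were the sodium channel gene Scn3a (0.996), Pcnxl2 (0.996) and the potassium channel gene Kcnq5 (0.995), and for Ryr2 they included Pcnxl2 (0.991) and Ntrk3 (0.986). For Ryr3 they were Eml5 (0.99), Trank1 (0.989) and C2cd5 (0.987), for Ryr1 Pde3b (0.995), Slco1a4 (0.994) and Sh2b3 (0.993), and for Itpr3 Epb4.1 (0.989), Pisd-ps1 (0.988) and Nckap1l (0.988).

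The same was done on the deviations of each library from its group mean, which leaves out the differences between groups. The closest to Itpr2 were then Batf3 (r = 0.939), Slc7a2 (0.889) and Nfatc1 (0.889). For Itpr1 they were Camkv (0.989), Ptk2b (0.968) and 2010300C02Rik (0.966), and for Ryr2 Mbd5 (0.947), Parp6 (0.931) and Brinp1 (0.931). For Ryr3 they were 4932418E24Rik (0.928), Plekha5 (0.915) and Cnot1 (0.911), for Ryr1 Igsf9 (0.886), Sptbn4 (0.866) and Strc (0.863), and for Itpr3 Mfsd7c (0.883), Gm12992 (0.878) and Arhgap27 (0.875). Among the members, the deviations of Ryr2 correlated with those of Itpr1 (0.795) and Ryr3 (0.79), and those of Itpr2 correlated with those of Itpr1 at -0.38 and of Ryr2 at -0.517. The groups did not weigh alike in these values. The SD of Itpr1 was 0.36 in control IP and 0.036 to 0.064 in the other groups. That of Itpr2 was 0.28 in control input and 0.044 to 0.15 in the others. Such correlations can rest on few libraries and are a description only.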

How the data were processed

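RNA was measured in 16 libraries of 8 mice. Per the labels' protocols, libraries were stranded and made after removal of ribosomal RNA, and per the submitters' processing notes the software included HTSeq, STAR, limma and edgeR, and the build was mm10. For versions, annotation and strand use, nothing is stated here (not given in the sources used here).

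Per gene, the authors deposited log2 CPM, and the values themselves point to an average prior count of 0.25 and an effective size per library. Undoing both gave whole reads within a tolerance of 0.001 for every value, which served for totals (32334042 to 58482482 reads per library) and for some alternative settings. The authors' scaling factors were 0.891 to 0.918 in IP and 1.10 to 1.12 in input.

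Each of the 5 comparisons was a linear model in limma 3.58.1 (R 4.3.3) of those log2 values, with empirical Bayes moderation along a mean-variance trend and two-sided p-values adjusted by Benjamini-Hochberg over all genes tested, at a threshold of 0.05. Genes needed 10 reads, in a library of median size, in 4 libraries of the comparison and 15 reads in all. Scripts were tested on simulated data. Members and lists were chosen with earlier results of these data known. All 6 members were named. So were up to 4 called genes of each pathway list, by size of fold, and the 3 genes most correlated with each member, of which 1 is not reported here. Input and IP of a mouse share the animal by the labels, and their deviations from group means correlated at 0.127 to 0.382 (8 pairs), against -0.227 to 0.0782 between mice. Replicates differed by more than sampling noise (chi-square per degree of freedom at least 4.72). Alternatives (scaling, prior count, filter, weights, robust moderation, blocks and leaving out each mouse) are given in the closing section.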

Additional observations from a re-analysis of the deposited data

Results flagged for a closer look

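Of the 24 sets of 4 libraries (6 genes in 4 groups), 2 held a library set apart from the other 3 by Dixon's test, and chance flags about 1 set in 20. Itpr1 in PMCA input was lowest in mouse 4, at 10.99 log2 CPM, where the next library was at 11.06 (gap over range 0.883). Ryr2 in control input was lowest in mouse 4, at 7.77 log2 CPM, where the next was at 7.85 (gap over range 0.872).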

How the results depend on the processing

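Of 455 refits of the members' fold changes under other settings, 446 kept the direction and the side of the threshold, 2 lost a call, 6 gained one and 1 turned its sign. In IP against input all 6 genes were called under every alternative run, in both treatments. Total reads in place of the authors' scaling moved the median of all genes to -0.35 in PMCA mice and -0.28 in control mice, with 4290 genes higher and 8876 lower in PMCA mice and 4493 and 8389 in control mice, against 6117 and 6413, and 6285 and 6172. Itpr2 was then at 2.07 in PMCA mice and 2.21 in control mice. Upper-quartile scaling split the calls 4911 to 7958 and 4992 to 7698. Total reads split the genes called for the difference between fractions 120 to 236, against 162 to 177.

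In PMCA against control IP, 0 of the 6 genes were called with number sets by source name as a block, which leaves PMCA mice 1 and 2 against the 4 control mice, and 2 under each other setting. The genes called there were 1716 with that block and 4669 with all 16 libraries in one fit, against 3086, and 1723 to 3641 without single mice (1981 without PMCA mouse 2, 1723 without PMCA mouse 3, 1730 without control mouse 2 and 2049 without control mouse 3). With at least 50 reads Itpr3 was not tested in IP. In input, 3 genes were called with number sets by title as a block, and 0 to 3 without single mice, with 3 only without control mouse 4. The 72 genes called in input became 157 with upper-quartile scaling, 43 with no filter, 47 with all 16 libraries, 860 and 32 with number sets by title and by source name, and 5 to 1349 without single mice, with 1349 without control mouse 4 and at most 33 without any other. For the difference between fractions, the 339 genes called were 23 to 456 without single mice (41, 36 and 54 without PMCA mice 1, 2 and 3, and 164, 23, 119 and 226 without control mice 1 to 4), and Itpr2 lay at -0.25 to 0.0026 without single mice, positive without control mouse 3. The cause of these shifts was not tested. With the animal as a replicate block, 6, 6 and 0 release channel genes were called in the comparisons across fractions, and no call changed. Reads limit Itpr3 most, at 39 to 87 per IP library.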
